A study of Mus musculus with 4 samples.

Results

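Checkpoint and costimulatory ligands are surface or secreted proteins through which one cell tells a T cell to respond or to stop. The 9 ligand genes described here were chosen by name, by a rule that uses no measured value, although earlier results of these data were known when they were chosen: *Cd274* (PD-L1), *Pdcd1lg2* (PD-L2), *Cd80*, *Cd86*, *Icosl*, *Pvr* (CD155), *Lgals9* (galectin-9), *Cd276* (B7-H3) and *Tnfrsf14* (HVEM). All 9 were among the 25239 gene symbols counted, and all 9 passed the filter on low counts that left 13919 genes for testing. The data comprised 4 RNA-Seq libraries labelled as lung tumor-infiltrating CD4+ T cells, 2 from WT mice and 2 from CD4/ALK4-KO mice. The mice were C57BL/6 animals of 8 to 10 weeks, and CD4/ALK4-KO mice carried CD4CreERT2 and floxed *Acvr1b* alleles (CD4CreERT2+/-/Acvr1bfl/fl), so that tamoxifen switches on a Cre recombinase driven by the *Cd4* promoter and deletes *Acvr1b*, the gene of the activin receptor ALK4, in cells that express *Cd4*. All groups were inoculated with 500000 LLC-OVA cells, which are Lewis lung carcinoma cells engineered to make ovalbumin. Tumors were taken on days 18 to 22 by the sample labels and on days 16 to 20 by the study's methods, and CD4+ T cells were isolated from the digested tumors with commercial kits. Whether WT mice also received tamoxifen, and whether a library pooled several animals, is not given in the sources used here.

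The B7 family members *Cd80* and *Cd86* are carried mainly by dendritic cells, B cells and macrophages and deliver the second signal through CD28, while the same proteins are captured by the inhibitory receptor CTLA-4. PD-L1 and PD-L2 engage PD-1 and restrain T cells, ICOS ligand engages ICOS, CD155 binds the inhibitory TIGIT and the activating CD226, galectin-9 binds TIM-3 (*Havcr2*), and HVEM binds the inhibitory BTLA and CD160 as well as the activating LIGHT (*Tnfsf14*). PD-L1 is induced by interferon-γ in many cell types, tumor cells included. The receptor of B7-H3 is not settled, and B7-H3 is made mostly by tumor, stromal and myeloid cells.

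The 2 genes of the PD-1 ligands are neighbors on chromosome 19. In GENCODE M21 on GRCm38, *Cd274* spans chr19:29367455-29388095 and *Pdcd1lg2* chr19:29410919-29471161, both on the plus strand, with 22823 bases between them. Their upstream sequences are shown because the neighbors differed in the size of their change (below 1 on the log2 scale for *Cd274* and above it for *Pdcd1lg2*), and that of *Lgals9* because it holds a match to the interferon-stimulated response element. RefSeq promoters of GRCm38.p6 were matched for 7 of the 9 genes, *Cd86* and *Pvr* being those with no entry used. Each line gives the 250 bases before the RefSeq start, read 5′ to 3′ along the gene, and capitals mark a match to a searched motif.
Cd274: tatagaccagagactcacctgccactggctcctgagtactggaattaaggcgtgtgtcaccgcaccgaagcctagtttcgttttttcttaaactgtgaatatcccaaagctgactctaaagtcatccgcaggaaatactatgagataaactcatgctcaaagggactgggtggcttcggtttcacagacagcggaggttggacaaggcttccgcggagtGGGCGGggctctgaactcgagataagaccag
Pdcd1lg2: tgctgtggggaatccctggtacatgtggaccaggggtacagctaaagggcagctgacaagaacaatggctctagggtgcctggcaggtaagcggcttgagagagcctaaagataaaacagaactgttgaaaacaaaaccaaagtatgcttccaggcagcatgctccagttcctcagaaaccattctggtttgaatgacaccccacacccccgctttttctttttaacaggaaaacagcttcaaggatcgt
Lgals9: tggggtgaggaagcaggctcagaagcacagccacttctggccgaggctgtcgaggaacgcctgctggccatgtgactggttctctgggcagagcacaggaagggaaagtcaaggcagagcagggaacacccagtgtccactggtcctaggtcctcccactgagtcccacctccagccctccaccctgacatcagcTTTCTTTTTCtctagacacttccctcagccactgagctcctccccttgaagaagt
Tnfrsf14: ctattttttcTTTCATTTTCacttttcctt

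These windows are chr19:29367188-29367437 (plus strand) for *Cd274*, chr19:29410669-29410918 (plus strand) for *Pdcd1lg2* and chr11:78984925-78985174 (minus strand) for *Lgals9*, of which the last 22 bases lie in an exon of a GENCODE transcript. For *Tnfrsf14*, 30 bases around its match are printed, at chr4:154928122-154928151 (minus strand), inside the gene as GENCODE annotates it, where 125 of the 250 bases searched are exonic. The motifs were searched on both strands. The interferon-stimulated response element (GAAA, any 2 bases, GAAA) occurred in *Lgals9*, starting 55 bases before the start, and in *Tnfrsf14*, starting 64 bases before it, in both cases on the strand opposite to the one printed, and in 2.98% of 32851 mouse promoters of this length. The gamma-activated sequence TTCNNNGAA (7.02% of promoters) and the NF-κB motif (GGG, any 2 bases, TTTCC, 1.41%) occurred in none of the 7 windows. The AP-1 motif TGANTCA (6.75%) occurred in *Cd80*, and the GC box GGGCGG (32.7%) in *Cd274*, *Icosl* and *Cd276*. Of the 250 bases searched, all 250 lie in GENCODE exons of the gene itself for *Cd276*, and 66 for *Icosl*. A match describes the letters in the window and nothing about binding.

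Gene counts summed to 13869889 and 13943237 for WT and to 11959487 and 11823908 for CD4/ALK4-KO. *Acvr1b* had 426 and 342 counts in WT and 322 and 445 in CD4/ALK4-KO, so the deletion could not be seen in these counts (log2 fold change 0.16, SE 0.24, edgeR adjusted p = 0.657), and the libraries are therefore called by their labels. All 14 T cell markers were higher in CD4/ALK4-KO, with a summed level of 492.8 and 558.6 CPM (counts scaled by library size) in WT against 2795 and 2837 in CD4/ALK4-KO, and *Cd4* had 759 and 649 counts against 3654 and 4033. Of 13919 genes, 2422 (17.4%) were higher and 2140 (15.4%) lower in CD4/ALK4-KO with an edgeR adjusted p under 0.05, and the 2 groups did not overlap in a higher direction for 32.7% and in a lower direction for 34.0%. Since the number of T cells per library and the RNA per cell cannot be told apart in bulk RNA, a scale set by the median ratio of the T cell receptor genes *Cd3d*, *Cd3e*, *Cd3g* and *Cd247* was used beside the TMM scale of whole libraries. On it, all genes shifted by -2.28 (median, log2), 0.302% of genes were higher and 93.0% lower. A gene lower on it is therefore no separate evidence. The 4 genes that set the scale ran from -0.32 (*Cd3d*) to 0.65 (*Cd3e*) on it, a spread that its p-values do not include.

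Of the 9 ligand genes, 6 were higher in CD4/ALK4-KO (*Cd274*, *Pdcd1lg2*, *Cd86*, *Icosl*, *Lgals9* and *Tnfrsf14*, 66.7%), 1 was lower (*Cd276*, 11.1%), and *Cd80* and *Pvr* did not pass the test. These shares stand beside the 17.4% and 15.4% of all genes given above, and the median log2 fold change of the 9 genes was 0.74 against -0.01 for all genes tested. On the T cell receptor scale none of the 9 was higher, 7 were lower (against 93.0% of all genes), and the median was -1.55 against -2.29 for all genes. The CPM of the 2 groups did not overlap for any of the 9 genes, 8 being higher and 1 lower. Of all genes tested, 32.7% did not overlap in the higher and 34.0% in the lower direction. The 9 genes summed to 404.5 and 447 CPM in WT and to 655.6 and 664.5 CPM in CD4/ALK4-KO, a ratio of means of 1.55. Fewer of the 9 passed when either WT library was left out. Such a fit takes its spread from the CD4/ALK4-KO pair alone, and fewer of all genes passed in it as well. Without WT replicate 1, the genes that passed were *Pdcd1lg2* and *Icosl* (2 higher, 0 lower), and without WT replicate 2 they were *Pdcd1lg2*, *Icosl* and *Tnfrsf14* (3 higher) with *Cd276* lower. Without CD4/ALK4-KO replicate 1, 7 were higher, *Cd80* included.

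**Figure D1:**
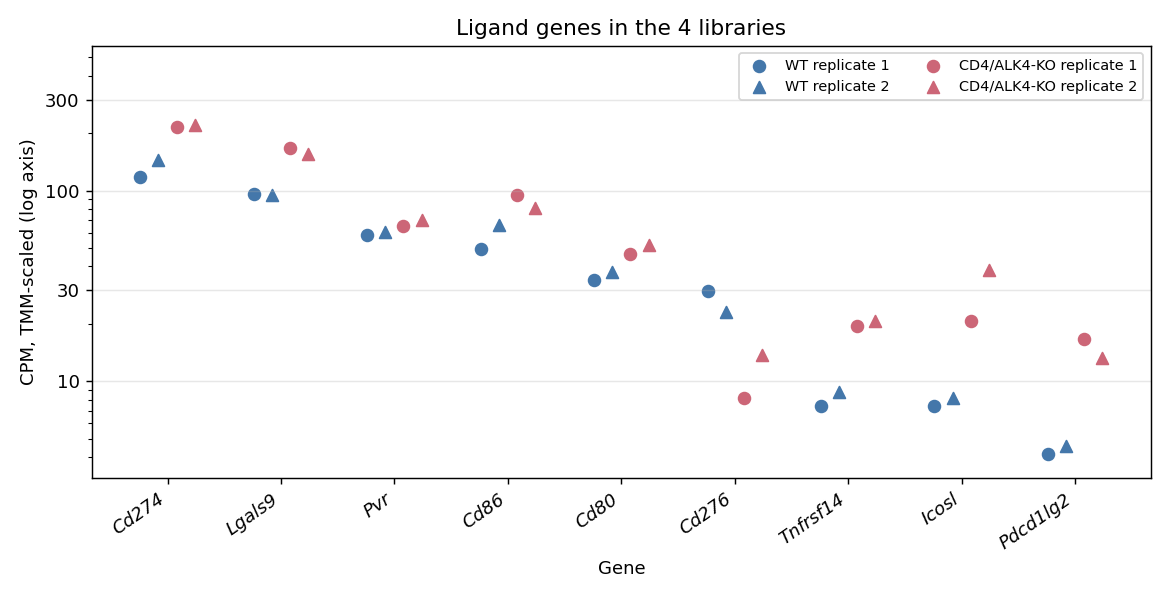
CPM on the TMM scale (log axis) of the 9 ligand genes, ordered by their WT mean, with 1 point per library (circles replicate 1, triangles replicate 2). The CD4/ALK4-KO points lie above both WT points for 8 genes, closest for *Pvr* (60.69 against 65.19 CPM), and below them for *Cd276*. Among all genes tested, 32.7% lie above and 34.0% below in this way. On the T cell receptor scale the 8 ligand genes above WT all have a negative log2 fold change.

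*Cd274* encodes PD-L1, the main ligand of PD-1. Its level was 118.1 and 144.1 CPM in WT and 216.9 and 220.8 CPM in CD4/ALK4-KO. Both CD4/ALK4-KO libraries were above both WT libraries, and the WT pair was farther apart (131.1 ± 18.3 CPM, SD, n = 2) than the CD4/ALK4-KO pair (218.9 ± 2.74 CPM, SD, n = 2). The log2 fold change was 0.74 (1.67-fold, SE 0.22, 95% interval 0.29 to 1.19, edgeR adjusted p = 0.0112). The call was lost without WT replicate 1 (0.60) and without WT replicate 2 (0.88). Scaled to the T cell receptor genes, *Cd274* was lower (-1.55, edgeR adjusted p = 3.88e-10), as were 93.0% of all genes.

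*Pdcd1lg2* encodes PD-L2, the second PD-1 ligand, which is typical of dendritic cells and macrophages. It had 57 and 62 counts in WT and 198 and 164 in CD4/ALK4-KO, or 4.16 and 4.58 CPM against 16.6 and 13.3 CPM. The groups were far apart relative to their spread, at 4.37 ± 0.30 CPM and 14.96 ± 2.37 CPM (SD, n = 2 each). The log2 fold change was 1.77 (3.42-fold, SE 0.32, 95% interval 1.11 to 2.43, edgeR adjusted p = 0.000183), and it was called with any one library left out (1.63 to 1.92). Scaled to the T cell receptor genes, the difference was -0.52 and did not pass the test (adjusted p = 0.173). Within each library, *Pdcd1lg2* per kilobase was 0.065 and 0.0588 of *Cd274* in WT and 0.142 and 0.111 in CD4/ALK4-KO, and this ratio, which no scaling of the libraries changes, was higher in both CD4/ALK4-KO libraries.

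*Cd80* and *Cd86* share their receptors CD28 and CTLA-4. *Cd80* was at 33.8 and 37.4 CPM in WT and at 46.7 and 51.8 CPM in CD4/ALK4-KO. The groups did not overlap, but the difference did not pass the test over all genes (log2 fold change 0.47, SE 0.22, 95% interval 0.01 to 0.92, edgeR adjusted p = 0.106), and it passed without CD4/ALK4-KO replicate 1 (0.57). *Cd86* was at 49.6 and 65.7 CPM in WT and at 95.35 and 80.8 CPM in CD4/ALK4-KO. It was higher in both CD4/ALK4-KO libraries, with a log2 fold change of 0.61 (1.53-fold, SE 0.22, 95% interval 0.15 to 1.07, edgeR adjusted p = 0.0378). The call for *Cd86* was lost without WT replicate 1 (0.42), without WT replicate 2 (0.82) and with upper quartile scaling (0.54). The ratio of *Cd86* to *Cd80* per kilobase was 1.49 and 1.77 in WT and 2.06 and 1.58 in CD4/ALK4-KO, so the balance between these 2 genes overlapped between the groups. Both were lower on the T cell receptor scale (*Cd80* -1.82, *Cd86* -1.69), as were 93.0% of all genes.

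*Icosl* encodes the ligand of ICOS and is carried by B cells and other antigen-presenting cells. It had 102 and 111 counts in WT and 246 and 474 in CD4/ALK4-KO, or 7.44 and 8.21 CPM against 20.7 and 38.4 CPM. Both CD4/ALK4-KO libraries were above WT, and they differed from each other more, as a ratio of CPM, than those of any other ligand gene. The log2 fold change was 1.92 (3.77-fold, SE 0.31, 95% interval 1.28 to 2.55, edgeR adjusted p = 4.99e-05), with 1.39 when CD4/ALK4-KO replicate 2 was left out and 2.32 when CD4/ALK4-KO replicate 1 was. The T cell receptor scale gave -0.36, which did not pass the test (adjusted p = 0.264). The 10 B cell markers, all higher in CD4/ALK4-KO, summed to 86.5 and 72.8 CPM in WT and to 262.9 and 523.1 CPM in CD4/ALK4-KO, and the genes of the lists nearest to *Icosl* over the 4 libraries were the B cell genes *Cd79b* and *Ms4a1*. Of the tested genes, 37 were at least as near as *Cd79b*. The part of B cell RNA in the *Icosl* difference was not tested.

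*Pvr* encodes CD155, which is found on epithelial and tumor cells as well as on myeloid cells. Its level was 58.5 and 60.7 CPM in WT and 65.2 and 69.7 CPM in CD4/ALK4-KO. The groups did not overlap, yet the step between them was small, and the difference did not pass the test (log2 fold change 0.18, SE 0.21, 95% interval -0.26 to 0.62, edgeR adjusted p = 0.558). With T cell receptor scaling *Pvr* was at -2.11 (edgeR adjusted p = 2.19e-16), near the median of -2.29 for all genes, of which 93.0% were lower.

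*Lgals9* encodes galectin-9, a secreted lectin. It was at 95.7 and 94.6 CPM in WT and at 166.5 and 155.5 CPM in CD4/ALK4-KO, with the least spread of the 9 genes in WT (95.1 ± 0.735 CPM, SD, n = 2) relative to its level. Both CD4/ALK4-KO libraries were clearly higher, with a log2 fold change of 0.76 (1.69-fold, SE 0.21, 95% interval 0.33 to 1.19, edgeR adjusted p = 0.0075). The size was nearly the same in the fits without WT replicate 1 (0.76) and without WT replicate 2 (0.74), in which it no longer passed the test. *Lgals9* was lower on the T cell receptor scale (-1.53, edgeR adjusted p = 7e-10), as were 93.0% of all genes.

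*Tnfrsf14* encodes HVEM, which T cells themselves also carry. It had 102 and 119 counts in WT and 232 and 254 in CD4/ALK4-KO, or 7.44 and 8.80 CPM against 19.5 and 20.6 CPM. The replicates lay close together in both groups (8.12 ± 0.957 and 20.03 ± 0.765 CPM, SD, n = 2 each). The log2 fold change was 1.30 (2.47-fold, SE 0.28, 95% interval 0.72 to 1.88, edgeR adjusted p = 0.00116), and the call was lost without WT replicate 1 (1.18). *Tnfrsf14* was lower on the T cell receptor scale (-0.99, edgeR adjusted p = 0.00304), as were 93.0% of all genes.

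*Cd276* was the only one of the 9 that fell on the TMM scale. It had 409 and 311 counts in WT and 97 and 169 in CD4/ALK4-KO, or 29.8 and 23.0 CPM against 8.15 and 13.7 CPM. Both CD4/ALK4-KO libraries were below both WT libraries, and the mean was 2.42 times as high in WT as in CD4/ALK4-KO by the fitted log2 fold change of -1.27 (SE 0.29, 95% interval -1.88 to -0.67, edgeR adjusted p = 0.00193). It was -1.08 and did not pass without WT replicate 1, and it was -0.92 when CD4/ALK4-KO replicate 1 was left out and -1.70 when CD4/ALK4-KO replicate 2 was. On the T cell receptor scale *Cd276* was -3.54 (edgeR adjusted p = 6.22e-29). That scale shifted all genes by a median of -2.28 and put 93.0% of them lower. A gene lower on the TMM scale therefore keeps its direction there, and the value is no separate evidence. The fibroblast markers summed to 6712 and 7307 CPM in WT and 4773 and 3965 CPM in CD4/ALK4-KO (4 of 7 lower and 0 higher, 2 lower when either WT library was left out, and 1 higher when CD4/ALK4-KO replicate 2 was), and the epithelial and carcinoma markers to 971.2 and 927.8 against 616.3 and 470.9 CPM (6 of 9 tested lower, 2 higher, with 2 lower without WT replicate 1 and 3 without WT replicate 2). The 2 higher epithelial and carcinoma markers were *Epcam* and *Cdh1*, with log2 fold changes of 2.31 and 1.77, so this list did not move as one. The part of fibroblast, epithelial and carcinoma cells in the *Cd276* difference was not tested.

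**Figure D2:**
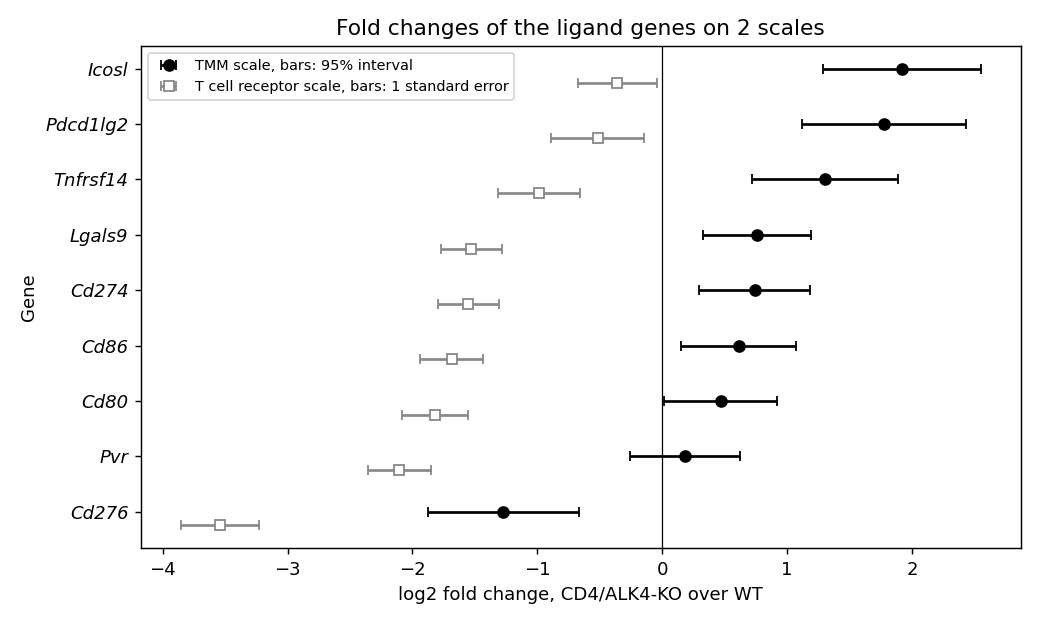
Log2 fold change of CD4/ALK4-KO over WT for the 9 ligand genes on the TMM scale (filled circles, bars 95% intervals) and on the T cell receptor scale (open squares, bars 1 standard error). The intervals lie above 0 for 7 genes on the TMM scale, although *Cd80* did not pass after adjustment over all genes, while on the T cell receptor scale all 9 values are negative, from -0.36 for *Icosl* to -3.54 for *Cd276*.

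To set the genes against each other, CPM were divided by the length of all annotated exons. Per kilobase, the order in WT was *Lgals9* (44.5 ± 0.344), *Cd274* (36.2 ± 5.06), *Cd86* (15.7 ± 3.10), *Pvr* (9.73 ± 0.259), *Cd80* (9.61 ± 0.691), *Cd276* (7.22 ± 1.33), *Tnfrsf14* (5.65 ± 0.666), *Pdcd1lg2* (2.23 ± 0.153) and *Icosl* (1.69 ± 0.117 CPM per kilobase, SD, n = 2 each). Of these neighbors only *Pvr* and *Cd80* overlapped between their libraries. In CD4/ALK4-KO, *Lgals9* (75.3 ± 3.64), *Cd274* (60.4 ± 0.757) and *Cd86* (24.1 ± 2.82) kept the first 3 places. *Tnfrsf14* stood at place 4 (13.9 ± 0.532) instead of 7, beside *Cd80* (13.3 ± 0.964), with which it overlapped, and *Cd276* stood at place 9 (2.99 ± 1.07) instead of 6. *Pvr* (11.02 ± 0.525) came sixth, and *Pdcd1lg2* (7.63 ± 1.21) and *Icosl* (6.39 ± 2.71) overlapped with each other.

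Because B7 and PD-1 ligands are made largely by antigen-presenting cells, each ligand was also counted per 1000 counts of the MHC class II genes *H2-Aa*, *H2-Ab1*, *H2-Eb1* and *Cd74* of the same library, with no test. All 6 MHC class II markers (highest CPM *H2-Aa* and *Cd74*) were higher in CD4/ALK4-KO (4 without WT replicate 1 and 2 without WT replicate 2), and they summed to 3091 and 2359 CPM in WT and to 4180 and 5230 CPM in CD4/ALK4-KO. Measured this way, *Cd274* had 39.1 and 62.8 counts in WT and 53.6 and 43.7 in CD4/ALK4-KO, and *Lgals9* had 31.7 and 41.2 against 41.1 and 30.8. Both overlapped between the groups, as did *Cd80* (11.2 and 16.3 against 11.5 and 10.2) and *Cd86* (16.4 and 28.6 against 23.55 and 15.97). *Pdcd1lg2* stayed above WT in both CD4/ALK4-KO libraries (1.38 and 2.00 against 4.11 and 2.63), as did *Icosl* (2.47 and 3.58 against 5.11 and 7.59) and *Tnfrsf14* (2.47 and 3.83 against 4.81 and 4.07). *Pvr* was below WT (19.4 and 26.4 against 16.1 and 13.8), and so was *Cd276* (9.89 and 10.02 against 2.01 and 2.71). Relative to *Ptprc*, the gene of the leukocyte antigen CD45, those 3 higher genes overlapped between the groups and the other 6 were lower.

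**Figure D3:**
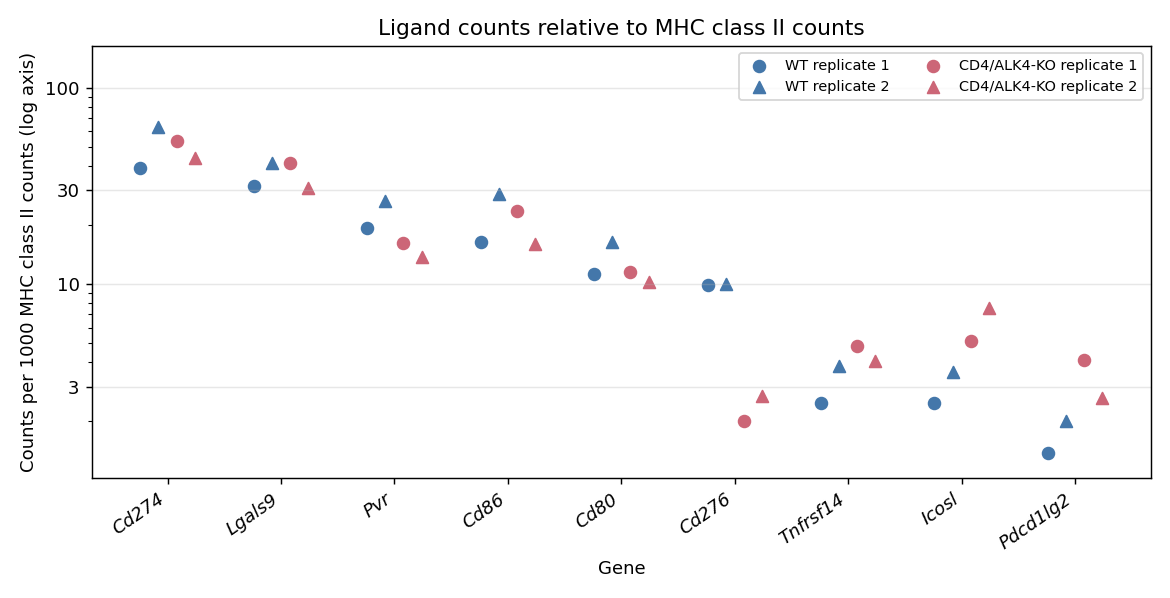
Counts of each ligand gene per 1000 counts of 4 MHC class II genes in the same library (log axis), with 1 point per library. *Pdcd1lg2*, *Icosl* and *Tnfrsf14* lie above both WT points in CD4/ALK4-KO, *Pvr* and *Cd276* below, and the other 4 genes overlap. With *Ptprc* as the denominator the first 3 overlap and the other 6 lie below.

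The receptors of these ligands are carried for the most part by T and NK cells. Of 14 receptor genes, 12 were higher (85.7%, against 17.4% of all genes), *Rgmb* was lower (-1.30) and *Havcr2*, the gene of TIM-3, did not pass the test (0.14, edgeR adjusted p = 0.666). Their median log2 fold change was 2.01 against 0.74 for the ligands, and on the T cell receptor scale 0 were higher and 3 lower, with a median of -0.28 against -1.55 for the ligands. No receptor call was lost with any one library left out. *Cd28*, the costimulatory receptor of *Cd80* and *Cd86*, rose from 42.6 ± 4.65 to 203.7 ± 36.7 CPM (SD, n = 2 each). *Pdcd1* (PD-1), *Btla* and *Cd226* rose by log2 fold changes of 2.39, 2.00 and 1.83. The cytokine genes *Lta* and *Tnfsf14*, whose products also bind HVEM, rose by 3.07 and 1.20.

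The ratio of ligand to receptor within a library does not depend on how libraries are scaled. It was formed per kilobase for pairs chosen after the values were seen, and is given with no test, since 2 libraries against 2 cannot give an exact permutation p below 0.333. *Cd274* stood at 4.19 and 8.05 times *Pdcd1* in WT and at 2.18 and 1.55 times in CD4/ALK4-KO. *Cd86* was 2.11 and 2.39 times *Cd28* in WT and 0.694 and 0.759 times in CD4/ALK4-KO, and *Cd80* went from 1.42 and 1.35 to 0.336 and 0.481. In WT both B7 genes were thus above *Cd28* per kilobase, and in CD4/ALK4-KO both were below it. The T cell markers summed 5.36-fold higher in CD4/ALK4-KO, and *Cd28* was -0.04 on the T cell receptor scale. These ratios therefore also carry the T cell content of each library, and its part in them was not tested. *Pvr* was 1.20 and 2.02 times *Tigit* in WT and 0.666 and 0.455 times in CD4/ALK4-KO. *Tnfrsf14* to *Btla* was 0.432 and 0.603 against 0.276 and 0.360. *Pdcd1lg2* to *Pdcd1* (0.272 and 0.473 against 0.308 and 0.173) and *Icosl* to *Icos* (0.114 and 0.135 against 0.0802 and 0.154) overlapped between the groups. *Lgals9* to *Havcr2* went the other way, from 1.67 and 1.63 to 2.47 and 2.62. *Havcr2* did not rise with the T cell markers (log2 fold change 0.14), and which cells carried it was not tested.

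**Figure D4:**
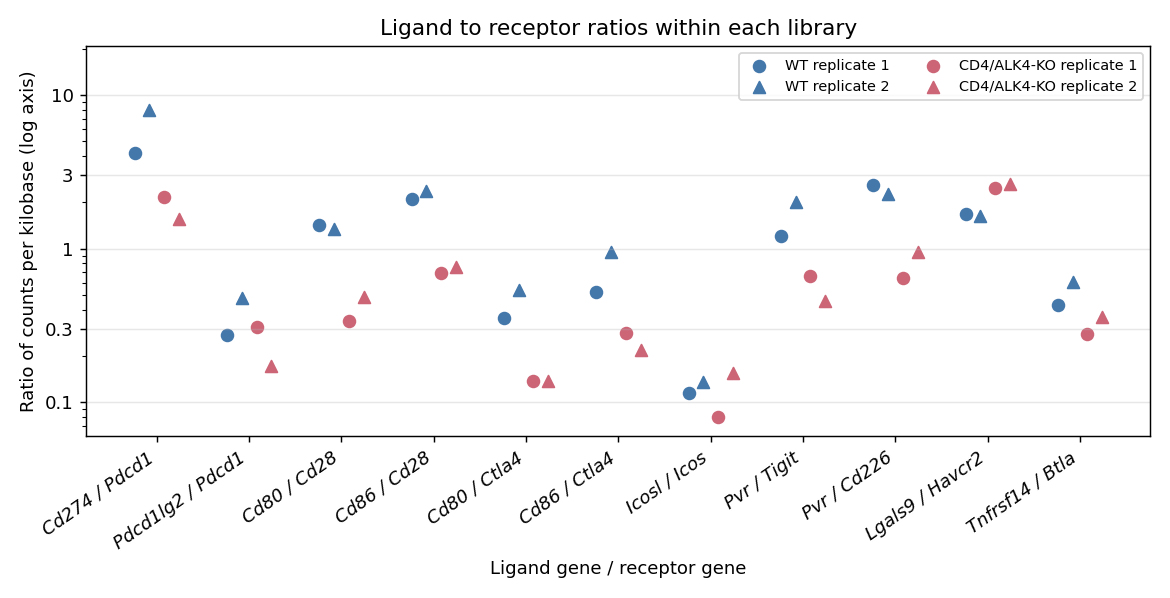
Ratio of ligand to receptor counts per kilobase (log axis) within each of the 4 libraries for 11 pairs. CD4/ALK4-KO lies below WT for 8 pairs, the groups overlap for *Pdcd1lg2* / *Pdcd1* and *Icosl* / *Icos*, and *Lgals9* / *Havcr2* is higher in CD4/ALK4-KO.

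Among 19 other costimulatory and coinhibitory ligand genes, 13 passed the filter, of which 3 were higher (23.1%), 2 lower (15.4%) and 8 did not pass the test. These shares are near the 17.4% and 15.4% of all genes, and the median log2 fold change was 0.09. *Cd40*, a costimulatory receptor of antigen-presenting cells, rose by 0.89 on the log2 scale. *Vsir*, the gene of the checkpoint protein VISTA, rose by 0.89 (edgeR adjusted p = 0.00354) and *Cd48*, a ligand of 2B4, by 0.98 (adjusted p = 0.00121). *Nectin3*, a gene related to *Pvr*, fell by 2.08 on the log2 scale, from 58.3 ± 4.07 to 13.8 ± 2.44 CPM (SD, n = 2 each). *Vsig4*, a macrophage gene, fell by 0.99. *Lgals3* (galectin-3) was at 471.7 CPM in WT and 393.8 CPM in CD4/ALK4-KO and did not pass (-0.26, adjusted p = 0.385). Without WT replicate 1, 1 was higher and 1 lower, the calls of *Cd48* (0.86), *Cd40* (1.05) and *Vsig4* (-0.56) being lost. The calls of *Vsir* (0.78) and *Cd40* (0.72) were lost without WT replicate 2 and that of *Vsig4* (-0.68) without CD4/ALK4-KO replicate 2. All 13 were lower on the T cell receptor scale, as were 93.0% of all genes.

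Of 15 genes of interferon signalling and other regulation of PD-L1, 9 were higher (60%, against 17.4% of all genes) and 0 lower, with a median log2 fold change of 0.93. *Ifng*, the gene of interferon-γ, rose by 1.63 (edgeR adjusted p = 7.5e-05). *Irf1*, an interferon-induced transcription factor gene, rose by 1.31 (edgeR adjusted p = 0.000105) and the kinase gene *Jak1* by 1.01. *Hif1a* did not pass (0.10). The calls of *Jak1* (0.79), *Cmtm6* (0.93) and *Nfkb1* (0.71) were lost without WT replicate 1. Those of *Stat3* (0.82) and *Nfkb1* (0.69) were lost without WT replicate 2. The share was thus below 60% in both of these fits. They take their spread from the CD4/ALK4-KO pair alone, and fewer of all genes passed in them too. With CD4/ALK4-KO replicate 1 left out, *Rela* (0.70) and *Stat6* (0.59) were also called higher. Without CD4/ALK4-KO replicate 2, 1 gene of the list, *Cmtm4*, was lower (-1.26). All 15 were lower on the T cell receptor scale, as were 93.0% of all genes, with a median of -1.34 against -2.29 for all genes.

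Over the 4 libraries, likeness was measured by the root mean square difference of centered log2 CPM among 140 genes of the lists, as a description. The genes nearest to *Cd274* were *Lgals9* (0.115) and *Cd86* (0.120), with 328 and 371 tested genes at least as near, while *Cd86* and *Lgals9* were 0.17 apart, with 848 genes at least as near to *Cd86*. *Tnfrsf14* was nearest to *Ifngr1*, a chain of the interferon-γ receptor (0.0349, with 2 tested genes at least as near), and *Pdcd1lg2* to *Cd226* (0.0919, 23 genes). *Cd276* was nearest to *Rgmb*, a PD-L2 receptor gene (0.0913, 40 genes), and *Pvr* to the macrophage gene *Fcgr1* (0.0389, 40 genes). *Cd80* was nearest to *Pvr* at 0.147, with 917 tested genes at least as near, so no gene of the lists stood out for it. The second genes were *Cdh1* for *Pdcd1lg2*, *Nfkb1* for *Cd80*, *Batf3* for *Pvr*, *Cd48* for *Lgals9*, *Cldn5* for *Cd276* and *Csf3r* for *Tnfrsf14*.

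The marker lists of other cells give the setting of these values, and no marker was at 0 in any library. Per kilobase, the T cell markers summed to 187.9 and 167.6 in WT and to 901.3 and 907.1 in CD4/ALK4-KO, and the fibroblast markers to 984.5 and 1073 against 657.8 and 530.4, so the fibroblast list stood above the T cell list in WT and below it in CD4/ALK4-KO. The genes with the highest CPM were *Cd3g* and *Lck* among T cell markers, *Col3a1* and *Dcn* among fibroblast markers and *Scgb1a1* and *Krt18* among epithelial and carcinoma markers. The 4 CD8 and NK cell markers, led by *Cd8a* and *Cd8b1*, were all higher (67.4 and 79.3 against 415.9 and 287 CPM). The macrophage markers (*Msr1*, *Mrc1*) summed to 2471 and 1972 against 1841 and 1999 CPM (1 of 11 higher, 1 lower), and the alveolar macrophage markers (*Chil3*, *Marco*) to 758.2 and 917.3 against 554.5 and 453.7 CPM (1 of 7 higher, 2 lower). Dendritic cell markers (*Fscn1*, *Ccr7*) summed to 256.3 and 234.5 against 320.5 and 279.2 CPM (4 of 9 higher, 2 lower). These 2 named genes went opposite ways. *Ccr7* rose from 26.3 and 32.8 to 123.7 and 133.6 CPM, while *Fscn1* fell from 149.2 and 119.7 to 50.7 and 44.5 CPM. The rise of the sum thus depends on *Ccr7*, which was -0.17 on the T cell receptor scale. Neutrophil markers (*S100a9*, *S100a8*) overlapped (898.7 and 1384 against 1398 and 919 CPM, with 2 of 7 higher and 0 lower), and endothelial markers (*Pecam1*, *Kdr*) summed to 54.6 and 71.2 against 124.3 and 139.6 CPM (1 of 6 higher, 1 lower). The rise of the endothelial sum was that of *Pecam1*, at 22.55 and 42.65 against 106.2 and 108.2 CPM. The median log2 fold change of the endothelial list was -0.33. The numbers of markers called in these lists moved when a library was left out. The macrophage list had 0 higher and 0 lower without WT replicate 1, 0 and 2 without WT replicate 2, 2 of each when CD4/ALK4-KO replicate 1 was left out, and 0 and 5 when CD4/ALK4-KO replicate 2 was left out. The alveolar macrophage list had 2 higher when CD4/ALK4-KO replicate 1 was left out and otherwise 0, and 1 lower without WT replicate 2. The dendritic cell list had 4 higher each time, and 1 lower unless CD4/ALK4-KO replicate 1 was the one left out. The neutrophil list had 0 higher without WT replicate 1, 1 higher and 1 lower without CD4/ALK4-KO replicate 1, but 4 higher without CD4/ALK4-KO replicate 2. The endothelial list had 3 lower without CD4/ALK4-KO replicate 2 and otherwise 0. The part of each of these cells in the ligand differences was not tested.

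**Figure D5:**
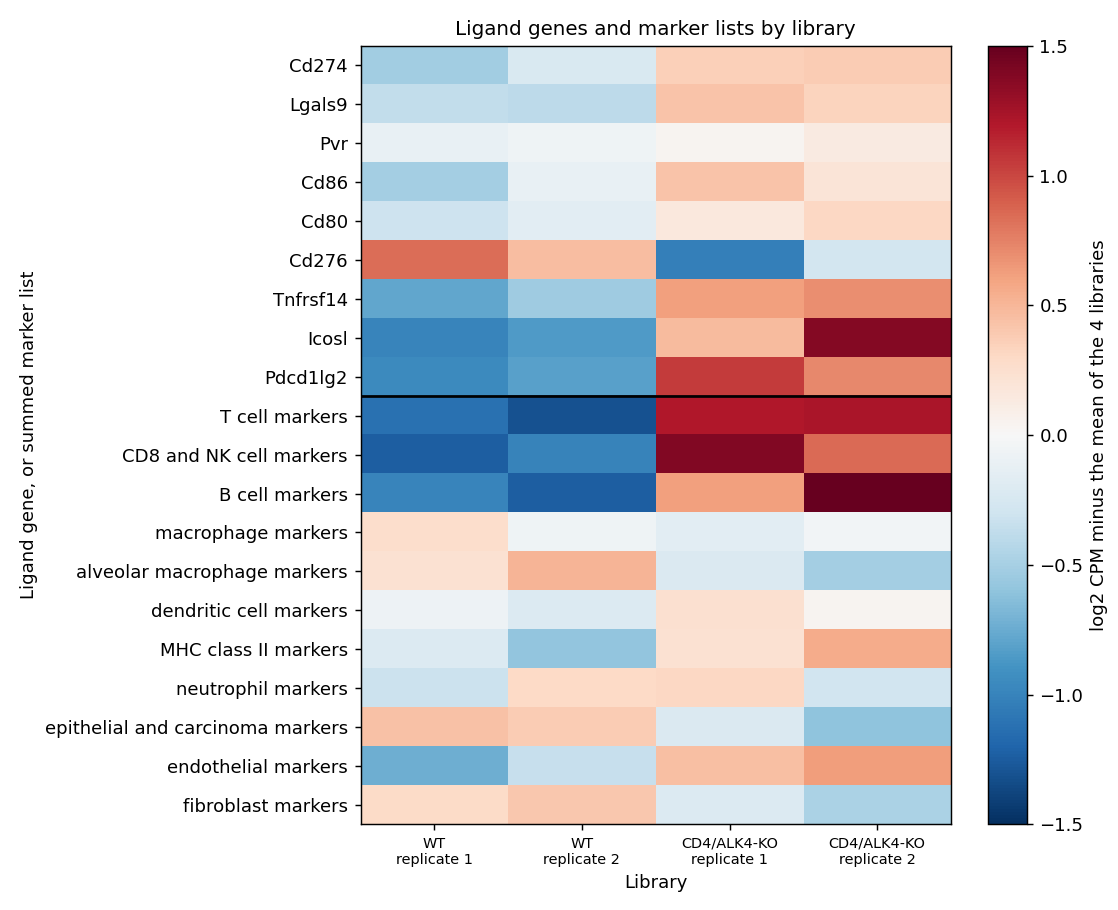
Log2 CPM of the 9 ligand genes (above the line) and of the summed CPM of 11 marker lists (below it) in each library, each minus its mean over the 4 libraries (color, red higher and blue lower, limited to 1.5 either way). *Icosl* and the B cell markers are both highest in CD4/ALK4-KO replicate 2. *Cd276* is lower in both CD4/ALK4-KO libraries, as are the summed fibroblast, epithelial and carcinoma and alveolar macrophage markers. Of all genes tested, 34.0% are lower in this way. Within the epithelial and carcinoma list, *Epcam* and *Cdh1* were higher.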

How the data were processed

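RNA-Seq was done on 4 libraries labelled as lung tumor-infiltrating CD4+ T cells, 2 WT and 2 CD4/ALK4-KO, with groups and replicate numbers from the sample labels. The libraries also held RNA of other cells, as the marker lists above show. Reads were single-end, 75 bp. The authors used HISAT2 (mm10) for alignment and htseq-count (intersection-nonempty) for counting, and deposited raw counts per gene symbol. Tool versions, annotation and strand setting are not given in the sources used here. Reads of overlapping or antisense genes may therefore not be told apart.

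From the counts, edgeR 4.0.16 in R 4.3.3 (filterByExpr, TMM, robust quasi-likelihood, genotype alone in the model, Benjamini-Hochberg adjustment over 13919 genes) gave the log2 fold changes, and a call is an adjusted p under 0.05. The common dispersion was 0.0357, and TMM-scaled CPM are shown. The T cell receptor scale used DESeq2's median-of-ratios size factors over *Cd3d*, *Cd3e*, *Cd3g* and *Cd247*. Per-kilobase levels used exon unions of GENCODE M21 (GRCm38), which matched 24366 symbols. Patterns used log2 of CPM plus 0.5. In tests on simulated counts for this comparison, 99.1% of 112 genes with a simulated log2 change of 2 were found among 13895 tested, and 11 unchanged genes were called. All genes were simulated with the common dispersion. A change of 2 is larger than that of any ligand gene on the TMM scale (at most 1.92, *Icosl*). The share found therefore does not tell how often changes of their size would be found.

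Replicates differed by more than sampling noise (chi-square per degree of freedom 16.1 for WT and 28.7 for CD4/ALK4-KO). The labels name them biological replicates without saying whether animals were pooled, so p-values measure the spread between these samples. The ligand genes and all lists were chosen with earlier results of these data known. Named were all 9 ligand genes, receptors as their partners, of other pathway lists the 3 genes with the highest mean CPM and the 3 with the largest change, of each marker list the 2 with the highest mean CPM, and for each ligand the 2 nearest genes. *Cmtm4*, *Cd40*, *Cmtm6*, *Stat3*, *Rela*, *Stat6* and *Epcam* were named after their values were seen. Among the genes so named, 1 is not reported here. *Ptprc* was named as a denominator. Alternatives were DESeq2 size factors, DESeq2 1.42.0, upper quartile and T cell receptor scaling, other filters, the likelihood ratio test, the replicate number as a block, and each library left out.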

Additional observations from a re-analysis of the deposited data

How the results depend on the processing

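*Pdcd1lg2* and *Icosl* were called higher under every alternative except the T cell receptor scale. DESeq2 size factors, DESeq2's Wald test, the likelihood ratio test, no filter and at least 10 counts in every library gave the same 6 higher and 1 lower ligand genes. With upper quartile scaling *Cd86* was 0.54 and no longer passed. The T cell receptor scale gave 0 higher and 7 lower ligand genes (42 and 12939 of all genes), and turned *Cd274* to -1.55, *Pdcd1lg2* to -0.52, *Cd80* to -1.82, *Cd86* to -1.69, *Icosl* to -0.36, *Pvr* to -2.11, *Lgals9* to -1.53 and *Tnfrsf14* to -0.99. Leaving out 1 library at a time gave 2 to 7 higher and 0 to 1 lower ligand genes, with ranges of 0.60 to 0.88 for *Cd274*, 0.42 to 0.82 for *Cd86*, 0.74 to 0.80 for *Lgals9*, 1.18 to 1.42 for *Tnfrsf14*, 0.39 to 0.57 for *Cd80* and -1.70 to -0.92 for *Cd276*. Of all genes, 1103 were higher and 754 lower without WT replicate 1, and 1344 and 1047 without WT replicate 2. These fits have 3 libraries, and the lone sample of a group is assumed to vary like the other group.

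Same-numbered samples did not deviate together (correlation across genes -0.24). This sets the difference within the WT pair against that within the CD4/ALK4-KO pair. It cannot tell whether the numbers stand for a pairing. With the replicate block, 3 ligand genes were higher and 1 lower, and *Cd274* (0.75), *Cd86* (0.62) and *Lgals9* (0.76) did not pass. The crossed replicate block, chosen after seeing the data, gave 7 higher and 1 lower, *Cd80* (0.47) included. The cause of these changes was not tested. Depth limits the precision of *Pdcd1lg2*, *Icosl* and *Tnfrsf14*, with 57 to 119 counts in each WT library, and of *Cd276*, with 97 and 169 counts in CD4/ALK4-KO.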
